A study of Danio rerio with 4 samples.

Results

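Expression of the Yap and Tead branch of the Hippo pathway was examined in whole zebrafish embryos at sphere stage, a blastula stage shortly after zygotic transcription begins. The genes were chosen by name: *vgll4l*, *yap1*, *wwtr1*, *tead1a*, *tead1b*, *tead3a*, *tead3b*, *lats1* and *lats2*. Of these 9 names, 8 were found among the 32468 genes listed, and no row carries the name *tead3b*. Embryos carrying the *eomesa* fh105 allele on the AB strain, bred from homozygous mutant parents and so lacking both maternal and zygotic Eomesa (MZ*eomesa*), were compared with wild-type AB embryos. In each group 2 samples of poly(A) RNA were sequenced, but the authors' deposited table holds 1 FPKM value per gene and group (fragments per kilobase of exon, scaled by library size), in which both samples are combined. The spread between samples and the number of reads behind a value are therefore unknown, and no test, standard deviation or detection limit accompanies the values below. The study used embryos lacking only maternal Eomesa in place of MZ*eomesa* embryos in some experiments, and the labels of these samples do not say whether that applies here.

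In the Hippo pathway a kinase cascade ends in the Lats kinases, which phosphorylate the coactivators Yap (encoded by *yap1*) and Taz (*wwtr1*) and hold them in the cytoplasm. Unphosphorylated Yap and Taz enter the nucleus and activate genes through Tead proteins, which bind DNA but activate poorly without a partner. Vestigial-like proteins also bind Tead proteins, and mammalian VGLL4 competes with YAP for them. At later stages zebrafish *vgll4l* marks ectoderm outside the neural plate, and afterwards neural crest.

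As a check of the genotype, *eomesa* was at 1.52 FPKM in MZ*eomesa* embryos and 62.6 FPKM in wild-type embryos, a log2 ratio of -5.36. Ratios are MZ*eomesa* over wild-type throughout. The 14828 genes that had a usable estimate, a mean of at least 1 FPKM and a value above 0 in both groups had a median log2 ratio of -0.01, with the middle of the distribution (quartiles) between -0.29 and 0.27. A gene is called higher or lower here when the groups differed at least 2-fold. At that fold 5.4% of the 14828 genes were higher and 3.8% lower in MZ*eomesa* embryos, 9.2% in either direction. Since RNA came from whole embryos, more cells of a type and more RNA per cell cannot be told apart. The mothers also differed in genotype between the groups, so message supplied by the mother and message made by the embryo cannot be told apart. Of the 8 genes listed, 5 had a mean of at least 1 FPKM, and of these 5, *vgll4l* and *lats2* were at least 2-fold higher and *tead1a* was at least 2-fold lower. These 3 genes lay close to the threshold, at log2 ratios of 1.03, 1.15 and -1.001. *yap1* and *lats1* stayed within it, and the counts are too small to be set against the background share.

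**Figure D1:**
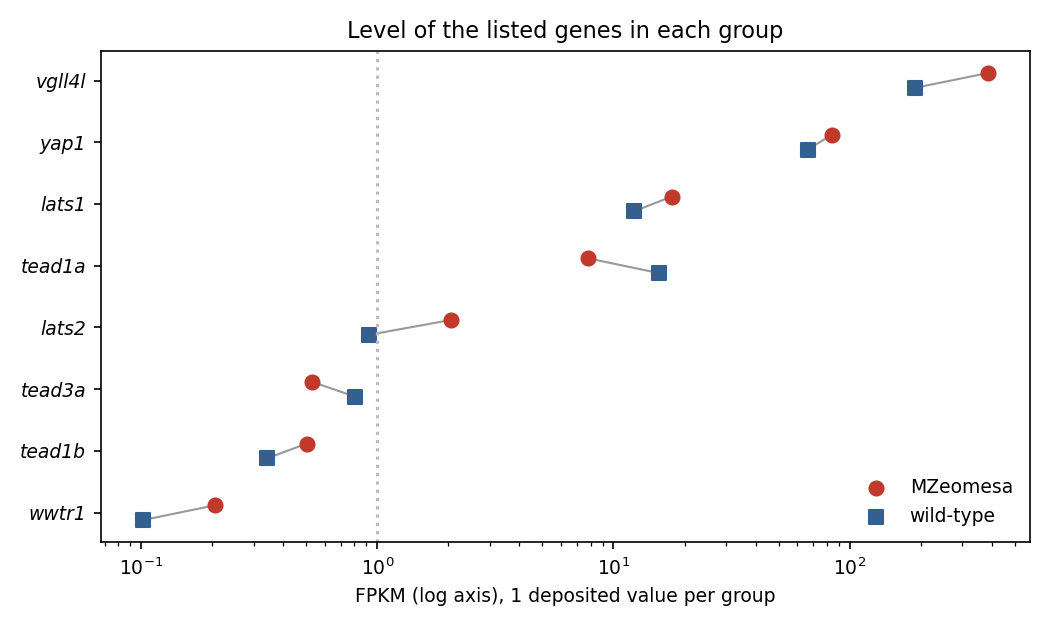
Level of the 8 listed genes in FPKM on a log axis, 1 deposited value per group, with MZ*eomesa* as circles and wild-type as squares, and a dotted line at 1 FPKM. *vgll4l*, *yap1* and *lats1* were above 10 FPKM in both groups, and *wwtr1*, *tead1b* and *tead3a* were under 1 FPKM in both. 6 genes had the higher value in MZ*eomesa* embryos, and *tead1a* and *tead3a* the lower, while the median log2 ratio of all genes was -0.01. *wwtr1*, *tead1b* and *tead3a* are too low for their direction to be read.

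*vgll4l* was by far the most abundant transcript of the set. The gene (ENSDARG00000068409, chromosome 8, 31947305 to 31955579 in Zv9 coordinates as the table lists them) was at 384 FPKM in MZ*eomesa* embryos and 189 FPKM in wild-type embryos. The log2 ratio was 1.03, a 2.04-fold higher level in MZ*eomesa* embryos, and a difference of 195 FPKM. Its wild-type level lay above that of 97.3% of the 14828 genes, and its MZ*eomesa* level above that of 98.9%. Counting *vgll4l* itself, 162 genes were at or above its level in MZ*eomesa* embryos and 394 were at or above it in wild-type embryos. A 2-fold difference was less frequent among abundant genes than among rare ones. Of the 1006 genes that averaged 100 FPKM or more, 20 (1.99%) were at least 2-fold higher in MZ*eomesa* embryos and 11 (1.09%) at least 2-fold lower, 3.08% in either direction. *vgll4l* was among those 20 genes and had the second smallest ratio of them, as 19 of the 1006 genes, itself included, had a ratio of at least its own. Its ratio is a description, since *vgll4l* was picked by the study from these samples and for Eomesa binding near it. By in situ hybridisation the study also reported more *vgll4l* in MZ*eomesa* embryos and less after injection of *eomesa* mRNA.

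**Figure D2:**
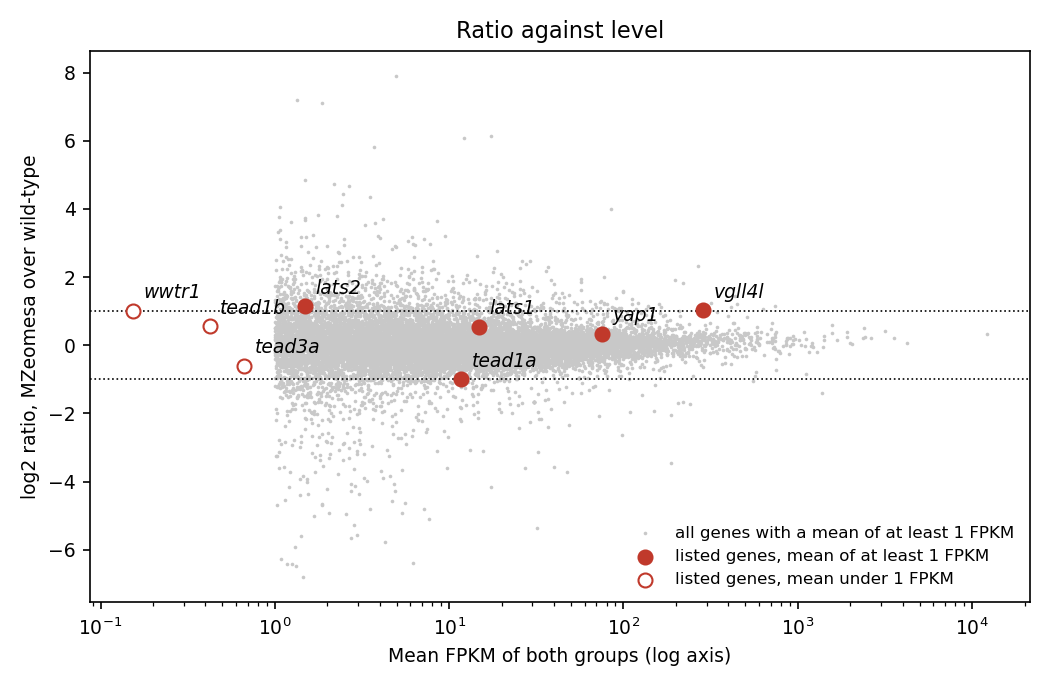
Log2 ratio of MZ*eomesa* over wild-type (vertical axis) against the mean FPKM of both groups (log axis) for 14828 genes in grey and the listed genes in red, filled where the mean reached 1 FPKM and open below it. Dotted lines mark a 2-fold difference. The grey cloud narrows to the right, where *vgll4l* lies at its upper edge with a log2 ratio of 1.03, while *lats2* at 1.15 lies in the broad part of the cloud.

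The coactivators were unequal in level. *yap1* (chromosome 18, 35623600 to 35695502) was at 83.9 FPKM in MZ*eomesa* embryos and 66.4 FPKM in wild-type embryos, a log2 ratio of 0.34. Of the 14828 genes, 21.5% had a higher ratio than *yap1*. Its span in the table is shared with a 5S ribosomal RNA gene that is listed at 0 in both groups. *wwtr1* (chromosome 22, 41007681 to 41073151) was at 0.206 FPKM in MZ*eomesa* embryos and 0.102 FPKM in wild-type embryos, a log2 ratio of 1.01 between values too low to be counted. On the FPKM scale, which is per length, *yap1* made up nearly all Yap and Taz message in both groups, and the sum of both genes was 84.1 FPKM in MZ*eomesa* embryos and 66.5 FPKM in wild-type embryos.

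Among the Tead genes, *tead1a* was the one with a mean above 1 FPKM under the names searched. *tead1a* (ENSDARG00000028159, chromosome 25, 16713138 to 16793062) was at 7.80 FPKM in MZ*eomesa* embryos and 15.6 FPKM in wild-type embryos, a log2 ratio of -1.001. Of the 14828 genes, 3.79% had a lower ratio. Among genes averaging between 10 and 100 FPKM, where *tead1a* lies, 1.56% were at least 2-fold lower in MZ*eomesa* embryos and 2.65% at least 2-fold higher, 4.21% in either direction. The mean of *tead1a*, 11.7 FPKM, is near the lower end of that range. Of genes averaging 1 to 10 FPKM, 6.17% were at least 2-fold lower and 8.34% at least 2-fold higher. The call for *tead1a* rests on the exact threshold, and centring the ratios on their median moved it to -0.99. Its paralogue *tead1b* (chromosome 7, 68134111 to 68174675) was at 0.503 FPKM in MZ*eomesa* embryos and 0.342 FPKM in wild-type embryos. *tead3a* (chromosome 23, 5657637 to 5672652) was at 0.528 FPKM in MZ*eomesa* embryos and 0.805 FPKM in wild-type embryos. Both are too low for their log2 ratios of 0.56 and -0.61 to be read as differences.

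The most abundant Tead row carries the name TEAD3 (2 of 2) and was looked up after its values had been seen. It is ENSDARG00000063649 on chromosome 6 (54531677 to 54626853). The table of gene names gives it as TEAD3 and does not say whether it is *tead3b*. RefSeq also places *tead3b* on chromosome 6, but no source used here pairs it with this row. TEAD3 (2 of 2) was at 22.1 FPKM in MZ*eomesa* embryos and 25.1 FPKM in wild-type embryos, a log2 ratio of -0.18. Of the other rows with a Tead name, TEAD4 was at 0.360 FPKM in MZ*eomesa* embryos and 0.180 FPKM in wild-type embryos, and TEAD1 (2 of 3) was at 0.149 FPKM in MZ*eomesa* embryos and 0.0679 FPKM in wild-type embryos. Summed over all 6 Tead rows, the level was 31.4 FPKM in MZ*eomesa* embryos and 42.1 FPKM in wild-type embryos, a log2 ratio of -0.42. *tead1a* made up 24.8% of that sum in MZ*eomesa* embryos and 37.1% in wild-type embryos, and TEAD3 (2 of 2) made up 70.3% in MZ*eomesa* embryos and 59.6% in wild-type embryos. Most of the difference in the Tead sum thus lay in *tead1a*.

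**Figure D3:**
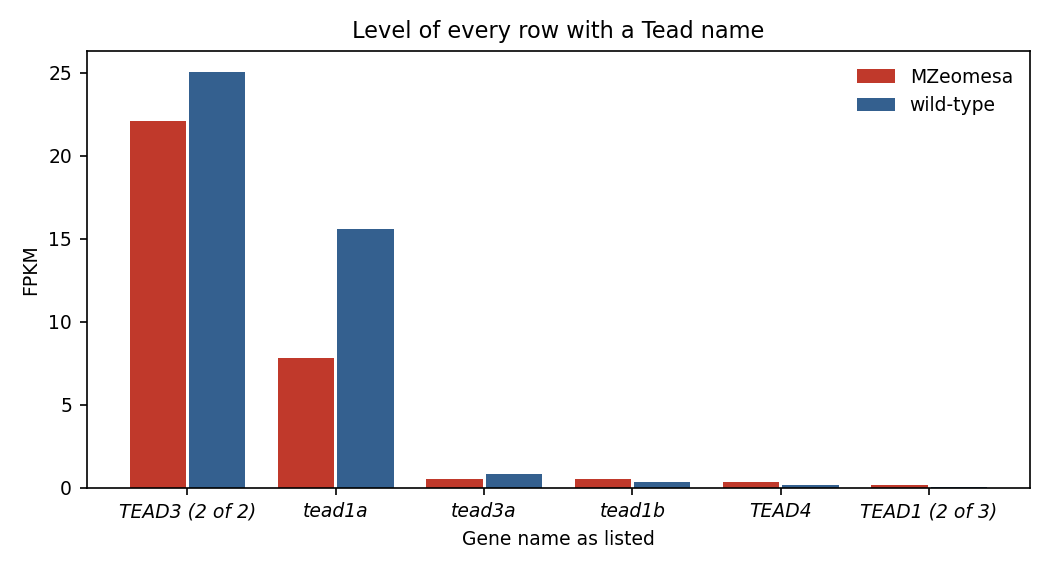
FPKM of each of the 6 rows with a Tead name, as bars from 0, MZ*eomesa* in red and wild-type in blue. 2 rows carry nearly all Tead message, and *tead1a* differs between groups (7.80 FPKM in MZ*eomesa*, 15.6 FPKM in wild-type) by more than TEAD3 (2 of 2) does (22.1 and 25.1 FPKM).

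The ratio of cofactor to Tead message was higher in MZ*eomesa* embryos through both sides of it. Of those sides, *yap1* (log2 ratio 0.34) and the Tead sum (-0.42) each differed by less than 2-fold. *vgll4l* was past that fold, and was picked by the study from these samples. *vgll4l* was 12.2-fold above the sum of all Tead rows in MZ*eomesa* embryos and 4.48-fold above it in wild-type embryos. *yap1* was 2.67-fold above the same sum in MZ*eomesa* embryos and 1.58-fold above it in wild-type embryos. *vgll4l* was 4.57-fold above *yap1* in MZ*eomesa* embryos and 2.84-fold above it in wild-type embryos. These are ratios of message per length in whole embryos and say nothing of protein or of which cells hold each transcript. A further *vgll4* row (ENSDARG00000040114, chromosome 11), also looked up after its values had been seen, was at 10.5 FPKM in MZ*eomesa* embryos and 9.10 FPKM in wild-type embryos. *VGLL3*, *vgll2a* and *vgll2b*, other members of the vestigial-like family, were each under 1 FPKM in both groups. *vgll4l* thus stood far above each other vestigial-like row in both groups.

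The Lats kinases also differed in level. *lats1* (chromosome 20, 1264481 to 1292172) was at 17.7 FPKM in MZ*eomesa* embryos and 12.2 FPKM in wild-type embryos, a log2 ratio of 0.54. Of the 14828 genes, 13.5% had a higher ratio. *lats2* (ENSDARG00000078864, chromosome 9, 22311190 to 22335865) was at 2.04 FPKM in MZ*eomesa* embryos and 0.921 FPKM in wild-type embryos, a log2 ratio of 1.15. A higher ratio was found for 4.04% of the 14828 genes. Among genes averaging between 1 and 10 FPKM, 8.34% were at least 2-fold higher and 6.17% at least 2-fold lower, 14.5% in either direction. A 2-fold ratio was thus more frequent in that range than over all genes (9.2% in either direction). The mean of *lats2*, 1.48 FPKM, is near the lower end of the range. With 1 FPKM added to both values its log2 ratio was 0.66. *lats1* was 8.65-fold above *lats2* in MZ*eomesa* embryos and 13.2-fold above it in wild-type embryos. The sum of both kinases was 19.7 FPKM in MZ*eomesa* embryos and 13.1 FPKM in wild-type embryos.

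The order of levels was nearly the same in both groups. In MZ*eomesa* embryos it ran from *vgll4l* through *yap1*, *lats1*, *tead1a*, *lats2*, *tead3a* and *tead1b* to *wwtr1*. In wild-type embryos *tead1a* stood above *lats1*, and the other positions were the same. Whether neighbours in this order differ beyond the spread between samples cannot be told from combined values.

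The upstream kinase cassette showed no difference of 2-fold. Of 17 rows listed under names of this cassette and its adaptors, 16 had a mean of at least 1 FPKM. Of these, 0 were at least 2-fold higher and 0 at least 2-fold lower, against 5.4% and 3.8% of all genes. These 16 rows are too few for counts of 0 to be set against those shares. Their median log2 ratio was 0.05, and they ranged between -0.72 and 0.36. *mob1bb*, a Mob1 adaptor that activates Lats kinases, was at 107 FPKM in MZ*eomesa* embryos and 102 FPKM in wild-type embryos. *nf2a*, which encodes a Merlin protein, was at 58.9 FPKM in MZ*eomesa* embryos and 71.8 FPKM in wild-type embryos. *stk3*, the zebrafish orthologue of the Hippo kinase MST2, was at 54.7 FPKM in MZ*eomesa* embryos and 52.1 FPKM in wild-type embryos, and its span is shared with another gene.

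Among cytoplasmic proteins that bind Yap or Lats, 13 of 16 rows had a mean of at least 1 FPKM, 1 was at least 2-fold higher and 0 were at least 2-fold lower, with a median log2 ratio of -0.06. The 1 was *ywhaqb*, which encodes a 14-3-3 protein (14-3-3 proteins retain phosphorylated Yap in the cytoplasm), at 27.1 FPKM in MZ*eomesa* embryos and 10.2 FPKM in wild-type embryos, a log2 ratio of 1.41. At a fold of 1.5, 4 were higher and 1 lower, against 12.2% and 10.5% of all genes. Just under the 2-fold threshold was another 14-3-3 gene, *ywhae2*. It was at 15.1 FPKM in MZ*eomesa* embryos and 7.60 FPKM in wild-type embryos, a log2 ratio of 0.99. In the other direction *amot* was at 6.56 FPKM in MZ*eomesa* embryos and 12.5 FPKM in wild-type embryos, a log2 ratio of -0.93. The 3 most abundant rows were also 14-3-3 genes and were near equal in both groups. *ywhae1* was at 342 FPKM in MZ*eomesa* embryos and 317 FPKM in wild-type embryos, *ywhabb* at 240 FPKM in MZ*eomesa* embryos and 214 FPKM in wild-type embryos, and *ywhaqa* at 156 FPKM in MZ*eomesa* embryos and 163 FPKM in wild-type embryos. Of the cell surface and polarity genes placed upstream of the cascade, 9 of 16 rows had a mean of at least 1 FPKM, and 0 were at least 2-fold higher and 0 at least 2-fold lower. Their median log2 ratio was -0.06, the lowest -0.92 and the highest 0.20. The most abundant were the polarity genes *llgl2*, at 98.3 FPKM in MZ*eomesa* embryos and 92.7 FPKM in wild-type embryos, *llgl1*, at 52.7 FPKM in MZ*eomesa* embryos and 55.7 FPKM in wild-type embryos, and *scrib*, at 53.2 FPKM in MZ*eomesa* embryos and 46.4 FPKM in wild-type embryos. Over these 3 lists together, 1 of 38 rows (2.63%) passed the fold, against 9.2% of all genes. By level, that share was 14.5% of genes averaging 1 to 10 FPKM, 4.21% of those averaging 10 to 100 FPKM and 3.08% of those averaging 100 FPKM or more. The 38 rows include genes of each of these levels.

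Genes widely used as readouts of Yap and Taz activity had ratios on both sides of 0, 7 above it and 6 below it among those counted. Of 23 rows listed, 13 had a mean of at least 1 FPKM, with 2 at least 2-fold higher, 0 at least 2-fold lower (5.4% and 3.8% of all genes) and a median log2 ratio of 0.01. At a fold of 1.5, 5 were higher and 0 lower, against 12.2% and 10.5% of all genes. The 2 were *mycb*, a Myc transcription factor gene, at 16.8 FPKM in MZ*eomesa* embryos and 6.997 FPKM in wild-type embryos, and *DLC1* at 2.12 FPKM in MZ*eomesa* embryos and 0.960 FPKM in wild-type embryos. The readouts most used in mammalian cells were low. *cyr61* was at 1.64 FPKM in MZ*eomesa* embryos and 1.95 FPKM in wild-type embryos, and *ankrd1a* was at 3.09 FPKM in MZ*eomesa* embryos and 3.45 FPKM in wild-type embryos. *ctgfb* was at 0.0325 FPKM in MZ*eomesa* embryos and 0.0364 FPKM in wild-type embryos. *ctgfa* was listed at 0 in MZ*eomesa* embryos and at 0.00286 FPKM in wild-type embryos. The most abundant genes of the list were the cyclin gene *ccnd1*, at 509 FPKM in MZ*eomesa* embryos and 283 FPKM in wild-type embryos (log2 ratio 0.85), *amotl2a*, which encodes an angiomotin that binds Yap, at 43.5 FPKM in MZ*eomesa* embryos and 27.6 FPKM in wild-type embryos (log2 ratio 0.65), and *birc5b*, at 28.5 FPKM in MZ*eomesa* embryos and 30.0 FPKM in wild-type embryos. These genes also have other regulators, so their levels are no measure of Yap activity by themselves.

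**Figure D4:**
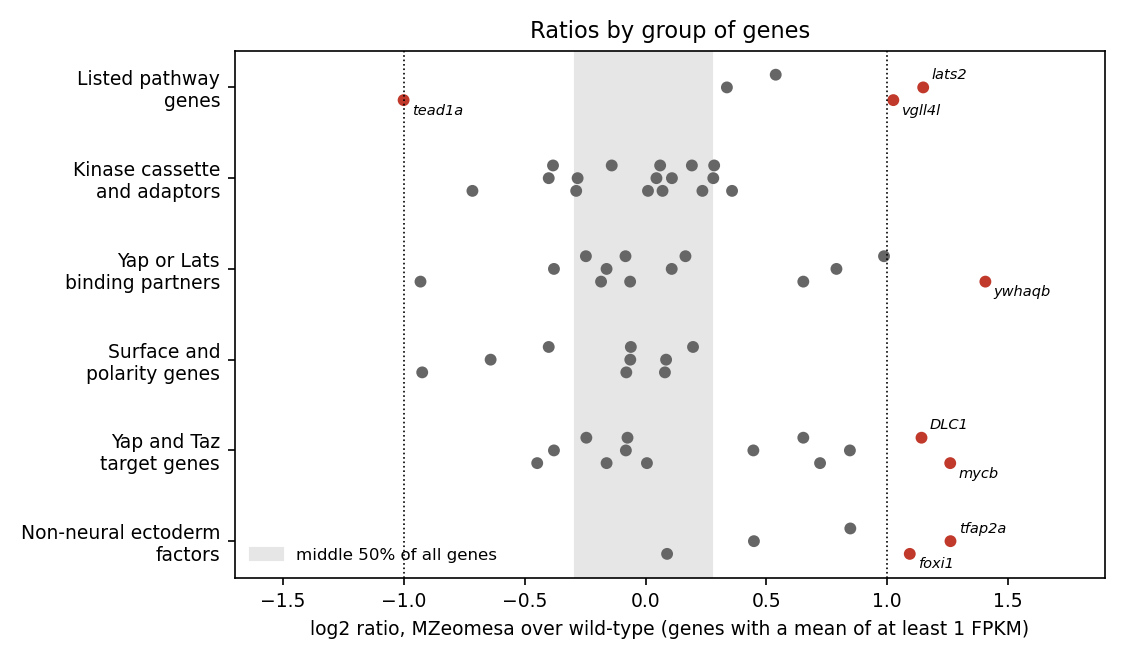
Log2 ratio of MZ*eomesa* over wild-type for each gene averaging 1 FPKM or more, 1 row of points per group of genes, with points past a 2-fold difference in red and named. The grey band spans the quartiles of all genes (-0.29 to 0.27) and dotted lines mark a 2-fold difference. The kinase cassette lies between -0.72 and 0.36, and the non-neural ectoderm factors all lie above 0.

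Transcription factors of the non-neural ectoderm, where *vgll4l* is expressed during gastrulation, mostly had higher values in MZ*eomesa* embryos. Of 8 genes listed, 5 had a mean of at least 1 FPKM, all 5 had a ratio above 0, 2 were at least 2-fold higher and 0 at least 2-fold lower (5.4% and 3.8% of all genes). Their median log2 ratio was 0.85, against -0.01 over all genes. Under 1 FPKM in both groups were *dlx3b*, *dlx4b* and *dlx5a*. Their log2 ratios of 1.62, -0.21 and -1.04 come from values too low to be read as differences. *tfap2a* was at 73.5 FPKM in MZ*eomesa* embryos and 30.6 FPKM in wild-type embryos, *foxi1* at 45.3 FPKM in MZ*eomesa* embryos and 21.2 FPKM in wild-type embryos, and *gata3* at 37.8 FPKM in MZ*eomesa* embryos and 35.5 FPKM in wild-type embryos. The list was drawn up with earlier results of these samples known. *tfap2a* was picked by the study from them and for Eomesa binding, and examined by in situ hybridisation, as *vgll4l* was.

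Markers of other cell types of the blastula also differed between the groups, and their part in the values of *vgll4l* and *tead1a* was not tested. Of 10 rows for keratin and claudin genes of the enveloping layer, the outer epithelium, 6 had a mean of at least 1 FPKM and a usable estimate, of which 2 were at least 2-fold higher and 0 at least 2-fold lower (5.4% and 3.8% of all genes), and 5 had a ratio above 0. Their median log2 ratio was 0.64. The 2 were *krt5*, at 25.2 FPKM in MZ*eomesa* embryos and 7.501 FPKM in wild-type embryos, and *cyt1*, at 2.28 FPKM in MZ*eomesa* embryos and 0.184 FPKM in wild-type embryos, which shares its span with another gene. The keratin genes *krt8* and *krt4* had log2 ratios of 0.73 and 0.55. The claudin genes did not share this difference, with log2 ratios of 0.15 for *cldne* and -0.39 for *cldnf*, whose mean was 1.16 FPKM. The median thus describes the keratin rows and not the claudin rows. The level summed over all 10 rows was 531 FPKM in MZ*eomesa* embryos and 288 FPKM in wild-type embryos. Of that sum *krt18*, whose row the authors' software marked as failed, gave 268 FPKM in MZ*eomesa* embryos and 120 FPKM in wild-type embryos. For the 3 rows of yolk syncytial layer genes, the sum was 7.73 FPKM in MZ*eomesa* embryos and 92.6 FPKM in wild-type embryos. Of that sum *mxtx2* gave 6.23 FPKM in MZ*eomesa* embryos and 73.9 FPKM in wild-type embryos. For 4 endoderm genes the sum was 0.903 FPKM in MZ*eomesa* embryos and 6.23 FPKM in wild-type embryos. Each of these 4 genes was under 1 FPKM in MZ*eomesa* embryos. In each of the 2 lists, 2 rows had a mean of at least 1 FPKM, and both were at least 2-fold lower (3.8% of all genes). These rows are too few to be set against that share. According to the study, Eomesa acts with Gata5 and Bon to induce *sox32* directly. Fewer cells of a type and less message per cell cannot be told apart for these markers.

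The genes next to *vgll4l* on chromosome 8 were expressed at far lower levels. *syn1*, which encodes a synapsin, begins 12.01 kb beyond *vgll4l* and was at 1.53 FPKM in MZ*eomesa* embryos and 0.739 FPKM in wild-type embryos, a log2 ratio of 1.05. *slc20a1a*, which encodes a phosphate transporter, ends 24.2 kb before it and was at 1.07 FPKM in MZ*eomesa* embryos and 0.747 FPKM in wild-type embryos. Within 200 kb 12 other genes are listed, of which 6 had a mean of at least 1 FPKM. Of these 6, *syn1* was at least 2-fold higher and 0 were at least 2-fold lower (5.4% and 3.8% of all genes). In the range of levels that holds *syn1* and *lats2*, a 2-fold ratio was more frequent than over all genes. Of genes averaging 1 to 10 FPKM, 8.34% were at least 2-fold higher and 6.17% at least 2-fold lower. The next gene beyond *tead1a*, *rassf10a*, was under 1 FPKM in both groups, and *parvaa*, which encodes a parvin and lies on its other side, was at 26.4 FPKM in MZ*eomesa* embryos and 19.4 FPKM in wild-type embryos, a log2 ratio of 0.44. *parvaa* did not have the lower value in MZ*eomesa* embryos, as *tead1a* did, and *rassf10a* was too low for its direction to be read.

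**Figure D5:**
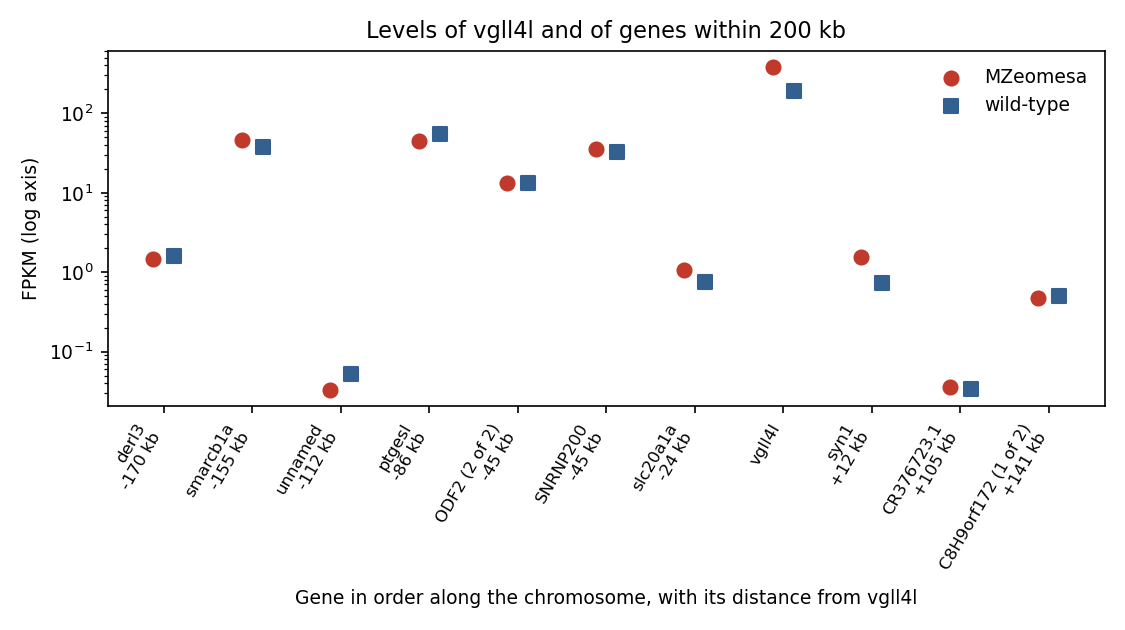
FPKM on a log axis for *vgll4l* and the 10 genes within 200 kb that were above 0 in both groups, in order along the chromosome with the distance from *vgll4l* in kb. MZ*eomesa* values are circles and wild-type values squares. *vgll4l* (384 FPKM in MZ*eomesa*, 189 FPKM in wild-type) stands above each of these neighbours, and *syn1* (1.53 and 0.739 FPKM) shows a ratio of like size at a much lower level.

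Among the genes whose pair of levels lay nearest to that of *vgll4l*, by Euclidean distance between log2 FPKM values over the 2 groups, were BX511182.1 (distance 0.22), *si:dkey-261j4.5* (0.33), *hspb1* (0.37) and *si:dkey-188c14.4* (0.40). *hspb1*, a small heat shock protein gene, was at 381 FPKM in MZ*eomesa* embryos and 244 FPKM in wild-type embryos. With 1 value per group this likeness covers the pair of levels alone. The log2 ratios of the genes named were, in the same order, 1.24, 0.60, 0.65 and 0.97, against 1.03 for *vgll4l*. Of these genes only BX511182.1 was at least 2-fold higher in MZ*eomesa* embryos. The spans of BX511182.1 and *si:dkey-261j4.5* are shared with other genes, so their values are uncertain.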

How the data were processed

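RNA-seq libraries of poly(A) RNA from whole sphere stage embryos were compared, 2 samples in each group. Per the labels, reads were mapped with TopHat2 2.0.5 to Zv9 and expression was estimated with Cufflinks (version not given in the sources used here). Reads mapping to several places were divided among them. The authors' deposited table holds 1 FPKM value per gene and group, both samples combined, and 0 further columns of values per sample. Its remaining numeric columns hold the authors' own fold changes, test statistics, p-values and q-values, which were not used or compared. With no value per sample there is no replicate error, so no test was made, and depth is unknown.

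FPKM in MZ*eomesa* embryos was divided by FPKM in wild-type embryos on the log2 scale, without a pseudocount (Python 3.11.15, numpy 2.4.6, pandas 2.3.3). Genes with status OK, a mean of at least 1 FPKM and values above 0 in both groups were counted, and 178 genes listed at 0 in a group were left out. A gene was called at a fold of at least 2. Names were matched exactly for the 9 genes, and without regard to case or numbered suffixes for the other lists. The genes named were the 9, *eomesa*, in each list those past the fold and the 3 most abundant, the 5 nearest to *vgll4l* and its neighbours; others were chosen after their values were seen. One gene that this rule would name is not reported here. The genes and lists were chosen with earlier results of these data known. All 8 identifiers were found in the table of gene names, as were 20734 of all listed. Counting of calls was tested on simulated data. Alternatives were other minimum values (0.1 and 5 FPKM, or none), pseudocounts (0.1 and 1 FPKM), centring on the median, no filter on status, leaving out genes that share a listed span, and a fold of 1.5.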

Additional observations from a re-analysis of the deposited data

How the results depend on the processing

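The log2 ratios of *vgll4l*, *yap1* and *lats1* moved by less than 0.1 under each alternative that applied to them. That tolerance was set by hand, as the spread between samples is unknown. Little movement was possible for these genes. The filter on status and the removal of shared spans leave the ratio of a single gene as it is. Centring shifts all ratios equally, and the pseudocounts are small beside these levels. The number of named genes at least 2-fold higher was 1 with a minimum of 5 FPKM and 1 with a pseudocount of 1 FPKM, against 2, because *lats2* dropped out, its log2 ratio being 0.66 with that pseudocount. It was 3 with a minimum of 0.1 FPKM or none, where *wwtr1* entered at 1.01. The number at least 2-fold lower was 0 with pseudocounts of 0.1 and 1 FPKM and 0 after centring, against 1, because *tead1a* crossed the threshold (-0.99, -0.92 and -0.99). Over all genes, against 801 higher and 563 lower, a minimum of 0.1 FPKM gave 1763 and 1316, no minimum 1763 and 1328, a minimum of 5 FPKM 332 and 199, and a fold of 1.5 gave 1807 and 1553. A pseudocount of 1 FPKM gave 543 higher and 414 lower. Counts were taken as staying where they changed by no more than 1.5-fold. Of the other values, which concern the lists, the sums and the genes under 1 FPKM, 114 stayed and 24 moved. Counts have no direction, and no ratio among these values changed sign. Part of the values that stayed could not have moved, as some alternatives leave a value unchanged by design. Among those that moved, the Yap and Taz target genes past the fold were 5 higher and 0 lower at a fold of 1.5, and 2 higher and 2 lower with a minimum of 0.1 FPKM or none, against 2 and 0. No paired analysis was possible because the deposited columns carry no value per sample, and leaving out replicates was not possible for the same reason.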

Other observations

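The Ndr kinases are the closest relatives of the Lats kinases, and their genes were looked up after the values had been seen. *stk38b* was at 22.05 FPKM in MZ*eomesa* embryos and 13.5 FPKM in wild-type embryos, a log2 ratio of 0.71. *stk38a* was at 71.6 FPKM in MZ*eomesa* embryos and 62.3 FPKM in wild-type embryos, and *stk38l* was at 33.0 FPKM in MZ*eomesa* embryos and 33.7 FPKM in wild-type embryos. In both groups *stk38a* was thus more abundant than *lats1* (17.7 FPKM in MZ*eomesa* embryos and 12.2 FPKM in wild-type embryos).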
